A study of Homo sapiens with 8 samples.

Results

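The genes that attach the small modifier ISG15 to proteins and take it off again were examined in 2 human acute myeloid leukemia (AML) lines after PRMT9 knockdown (KD). The set held 6 genes, namely ISG15, UBA7, UBE2L6, HERC5, HERC6 and USP18, chosen by symbol in the Molm13 table of 57992 genes and matched by gene identifier in the THP1 table of 58174 genes. All 6 were found in both tables and all 6 passed the filter on low counts in both lines. Every one of them was higher in both shPRMT9 libraries than in both shCtrl libraries of its line. The size of the rise ranged from 1.69-fold for HERC5 in Molm13 to 8.06-fold for USP18 in THP1.

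Poly(A) RNA was sequenced from cells labelled Molm13 and THP1, both names of monocytic AML lines that carry KMT2A fusions. Each line was given a control shRNA (shCtrl, genotype WT in the labels) or an shRNA against PRMT9 (shPRMT9), an arginine methyltransferase. All 4 groups were induced with Dox, so the controls received the inducer too. Each group held 2 libraries, 8 in all. Nothing in the labels says that these came from separate cultures, so the p-values measure the spread between these libraries, which may be technical. The numbers 1 and 2 in the names of the libraries were taken for replicates, although the study's hairpins are numbered likewise, and the names of the THP1 libraries carry the letters OCI beside the label THP1. Each line is 1 established culture, so the results describe these lines and not patients' cells.

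ISG15 is a ubiquitin-like protein that interferon strongly induces. It is joined to its targets by an enzyme chain like that of ubiquitin. UBA7 is the activating enzyme (E1), UBE2L6 is the conjugating enzyme (E2) and HERC5 is the main human ligase (E3), which acts on newly made proteins at the ribosome. HERC6 is the closest relative of HERC5 and serves as the main ISG15 ligase in mice. USP18 is the protease that removes ISG15, and apart from its protease activity it binds the receptor subunit IFNAR2 and dampens signalling by type I interferon. Free ISG15 stabilises USP18 in human cells. All of these genes are known interferon-stimulated genes (ISGs), and many ISGs carry an interferon-stimulated response element (ISRE) near their start, a sequence bound by interferon-activated transcription factors.

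The sequence before the start of the members was read first, since these genes are known for their ISREs. RefSeq promoters (build GRCh38.p14) were matched for 4 of the 6 members, whereas UBA7 and USP18 had no entry. The ISRE core was searched as GAAANNGAAA on both strands over the 250 bases before the start, with overlapping matches counted. It was present in 1061 of 35116 promoters (3.02%). ISG15 (chr1:1013247-1013496, + strand) held 2 overlapping matches on its own strand, over bases 113 to 104 and 107 to 98 before the start. HERC5 (chr4:88456869-88457118, + strand) held 3 on the opposite strand, over bases 125 to 116, 119 to 110 and 74 to 65 before the start. HERC6 (chr4:88378602-88378851, + strand), the upstream neighbour of HERC5, held none, and neither did either of the 2 UBE2L6 starts. The GAS motif (TTCNNNGAA), searched in the same way and present in 6.57% of promoters, was not found in any of the 4 genes. The sequences of ISG15, HERC5 and HERC6 are shown to set promoters with and without the core side by side. Each runs 5′ to 3′ on the + strand, and the capitals mark the bases covered by an ISRE core, 16 in ISG15 and 26 in HERC5.
ISG15: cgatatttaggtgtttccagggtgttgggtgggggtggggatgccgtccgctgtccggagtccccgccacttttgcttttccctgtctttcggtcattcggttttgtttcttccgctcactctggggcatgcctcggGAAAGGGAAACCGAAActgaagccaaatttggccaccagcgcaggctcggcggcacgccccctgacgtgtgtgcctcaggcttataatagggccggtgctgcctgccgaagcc
HERC5: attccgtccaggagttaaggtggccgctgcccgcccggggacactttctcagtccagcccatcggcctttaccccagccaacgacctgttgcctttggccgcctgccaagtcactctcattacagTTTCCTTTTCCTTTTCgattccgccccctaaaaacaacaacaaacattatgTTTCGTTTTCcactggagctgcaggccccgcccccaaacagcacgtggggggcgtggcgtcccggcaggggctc
HERC6: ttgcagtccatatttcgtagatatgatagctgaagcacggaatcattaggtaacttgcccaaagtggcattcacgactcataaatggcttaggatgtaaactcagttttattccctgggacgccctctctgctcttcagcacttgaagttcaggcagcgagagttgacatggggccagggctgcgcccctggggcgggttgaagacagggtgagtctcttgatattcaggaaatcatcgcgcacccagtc
A match is a run of letters and not a measured binding site, and the absence of one concerns only this window. The starts here are those of RefSeq, and not all of them match the gene spans used for the counts, given below. By those spans, the windows of ISG15 and UBE2L6 lie wholly inside the gene and that of HERC6 in part. Sequence before the spans of ISG15 and UBE2L6 was thus not searched.

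The targeted gene was checked in every library. PRMT9 had 332 and 289 counts in Molm13 shCtrl cells against 41 and 56 after KD, and 317 and 352 against 60 and 68 in THP1. It was 6.39-fold lower in Molm13 and 4.89-fold lower in THP1, and the difference between these effects did not pass the test (0.40 on the log2 scale, 95% CI −0.04 to 0.84, adjusted p = 0.15 by edgeR). Library totals lay between 18720950 and 21241742 counts in Molm13 and between 25127517 and 27356870 in THP1. Erythroid markers summed to at most 0.398 CPM (counts scaled to the library total) and T-cell markers to at most 3.04 CPM in any library. HOXB genes, listed because other AML lines express them, summed to 13.7 to 15.4 CPM in the THP1 and at most 0.534 CPM in the Molm13 libraries. The identity of the lines rests on the labels and was not tested. Of the 7 B-cell markers, PAX5 held most of the counts. Their sum was 42.3 to 43.0 CPM in the shCtrl and 39.8 to 41 CPM in the shPRMT9 libraries of Molm13, but 4.30 to 4.86 against 12.5 to 14.2 CPM in THP1, where PAX5 rose by 2.03 on the log2 scale (adjusted p = 7.4e-13 by edgeR). Myeloid markers were at 990 to 1000 CPM in the Molm13 shCtrl and 1630 to 1650 CPM in the shPRMT9 libraries, and at 2210 to 2220 and 3470 to 3640 CPM in THP1. LYZ held most of this sum in every library and rose by 0.66 in Molm13 and 0.71 in THP1 on the log2 scale. All 10 myeloid markers had counts in every library. At FDR below 0.05, 7 of 9 tested myeloid markers were higher and 2 lower in Molm13, where 33.4% of all genes were higher and 33.5% lower. In THP1, 8 of 10 were higher and 1 lower, against 19.0% and 18.6% of all genes. CSF1R (2.06 and 1.03) and ITGAM (1.95 and 1.15) rose in both lines, and MPO fell in both (−0.56 and −0.82). The part of these shifts in the rise of the ISG15 genes was not tested. In such bulk RNA, more cells of a kind and more RNA per cell cannot be told apart.

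ISG15, the modifier itself (ENSG00000187608, chromosome 1, 1001138 to 1014541 on hg38, + strand), was the member with the highest level in THP1. In Molm13 its counts were 72 and 76 with shCtrl and 180 and 205 with shPRMT9, or 3.92 ± 0.233 against 10.2 ± 0.0270 RPKM (reads per kilobase of exon, scaled to the library total, mean ± SD, n = 2 libraries each). In THP1 it went from 465 and 432 counts to 2226 and 2297, or from 18.0 ± 1.79 to 95.1 ± 2.82 RPKM. The groups did not overlap in either line, and the level of ISG15 in THP1 shCtrl cells was above that in Molm13 shPRMT9 cells. In edgeR's quasi-likelihood test, which stands behind every adjusted p here (Benjamini-Hochberg over all genes tested), it rose by 1.38 on the log2 scale in Molm13 (standard error 0.137, adjusted p = 4.5e-12) and by 2.43 in THP1 (standard error 0.0629, adjusted p = 3.6e-22). The locus overlaps 2 antisense genes, RP11-54O7.11 and RP11-54O7.10, which had at most 1 count in any library.

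UBA7, the E1 that activates ISG15 (ENSG00000182179, chromosome 3, 49805207 to 49813946, − strand), was the only member with a larger rise in Molm13 than in THP1. Its counts were 493 and 543 in Molm13 shCtrl and 1434 and 1682 in shPRMT9 libraries, or 5.69 ± 0.509 against 17.1 ± 0.402 RPKM. THP1 had 1496 and 1520 counts in shCtrl and 3103 and 3470 in shPRMT9 libraries, or 12.5 ± 0.452 against 28.6 ± 2.48 RPKM. The shPRMT9 libraries were thus about 3-fold and somewhat over 2-fold above their controls, with no overlap. The log2 fold changes were 1.59 (standard error 0.0564, adjusted p = 3.1e-27 by edgeR) in Molm13 and 1.22 (standard error 0.0519, adjusted p = 3.7e-17) in THP1.

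UBE2L6, the E2 that passes ISG15 on to the ligase (ENSG00000156587, chromosome 11, 57551656 to 57568284, − strand), had the lowest level of the set in Molm13 shCtrl cells and the largest rise of the set in that line. There it had 44 and 41 counts in shCtrl and 149 and 179 in shPRMT9 libraries, or 0.965 ± 0.0277 against 3.73 ± 0.151 RPKM. In THP1, 457 and 432 counts in the shCtrl libraries stood against 2298 and 2309, or 7.66 ± 0.666 against 41.5 ± 0.452 RPKM. Its rise was 1.94 on the log2 scale in Molm13 (standard error 0.165, adjusted p = 3.9e-14 by edgeR) and 2.47 in THP1 (standard error 0.0610, adjusted p = 1.2e-22). As for ISG15, THP1 shCtrl cells were above Molm13 shPRMT9 cells.

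The ligase genes HERC6 (ENSG00000138642, 88378739 to 88443111) and HERC5 (ENSG00000138646, 88457117 to 88506163) lie next to each other on the + strand of chromosome 4, 14005 bases apart. HERC5 had, with USP18, one of the smaller rises of the set in Molm13, from 597 and 594 counts to 936 and 1073, or from 6.24 ± 0.11 to 10.5 ± 0.0766 RPKM. In THP1 it went from 744 and 909 counts to 2621 and 2434, or from 6.54 ± 0.616 to 21.0 ± 0.941 RPKM. The shCtrl libraries of the lines were at about the same level, and the THP1 shPRMT9 libraries were the highest of the 8. HERC5 rose by 0.75 on the log2 scale in Molm13 (standard error 0.0572, adjusted p = 1.2e-15 by edgeR) and by 1.71 in THP1 (standard error 0.0553, adjusted p = 6.4e-20).

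HERC6 was lower than HERC5 in every group. It had 133 and 127 counts in Molm13 shCtrl and 285 and 308 in shPRMT9 libraries, or 1.12 ± 0.0128 against 2.57 ± 0.0884 RPKM. In THP1, counts of 226 and 286 in shCtrl stood against 1067 and 1131 in shPRMT9 libraries, or 1.67 ± 0.198 against 7.51 ± 0.366 RPKM. It rose by 1.19 on the log2 scale in Molm13 (standard error 0.106, adjusted p = 2.0e-13 by edgeR) and by 2.20 in THP1 (standard error 0.0792, adjusted p = 7.5e-19), in both lines more than its neighbour by the values of the fits. The difference between these neighbours was not tested.

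USP18, the protease that removes ISG15 (ENSG00000184979, chromosome 22, 18149899 to 18177397, + strand), was the gene whose response differed most between the lines. In Molm13 its counts were 70 and 57 in shCtrl and 112 and 105 in shPRMT9 libraries, or 1.49 ± 0.184 against 2.57 ± 0.345 RPKM. In THP1 they were 156 and 179 against 1271 and 1258, or 2.97 ± 0.148 against 23.5 ± 0.00562 RPKM. Groups did not overlap in either line, yet the Molm13 shPRMT9 libraries stayed below the THP1 shCtrl libraries. The rise was 0.77 on the log2 scale in Molm13 (standard error 0.170, adjusted p = 1e-04 by edgeR) and 3.01 in THP1 (standard error 0.0781, adjusted p = 3.6e-22), the latter the 46th largest of 16294 genes. USP41, a near copy of USP18 that could share its reads, had 0 to 3 counts in the Molm13 and 3 to 11 in the THP1 libraries and was not tested.

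**Figure D1:**
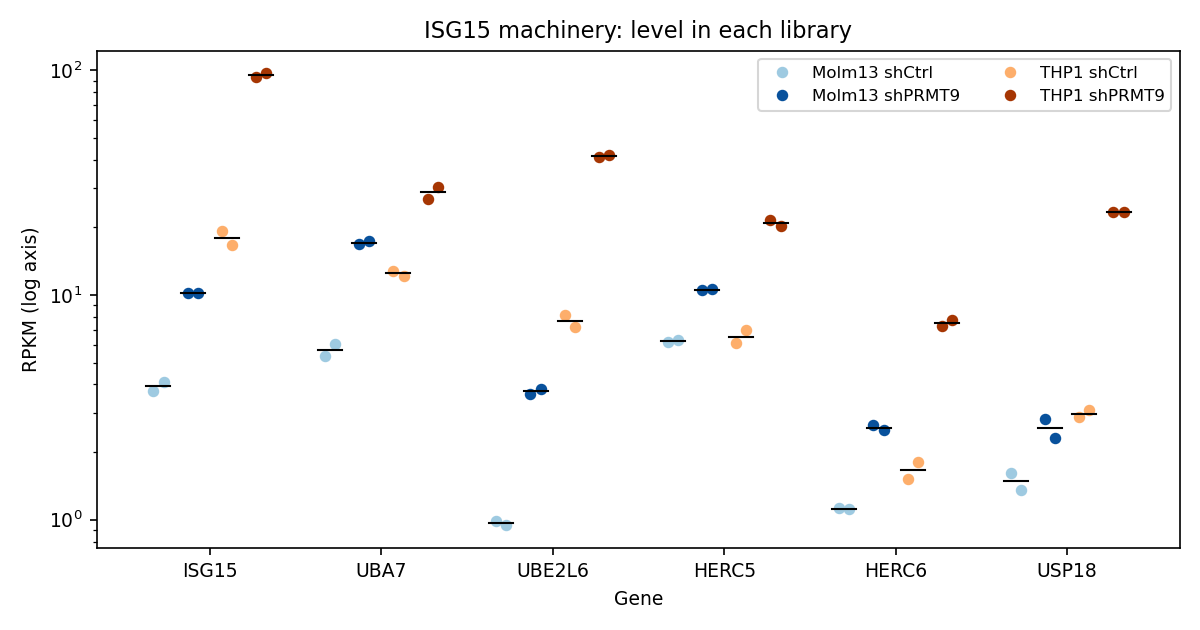
RPKM on a log axis of each of the 6 genes (x axis) in each of the 8 libraries, coloured by line and shRNA. Points are libraries and short lines are group means (n = 2). For every gene the shPRMT9 points lie above the shCtrl points of the same line, and the THP1 shPRMT9 libraries are the highest of all.

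Counted together, 6 of 6 members were called higher at FDR below 0.05 in Molm13, where 33.4% of the 16446 genes tested were called higher and 33.5% lower. In THP1, again 6 of 6 were called higher, against 19.0% higher and 18.6% lower of 16294 genes. The study's own rule also sets a fold change of over 1.5 and needs 1 or more libraries with RPKM above 1. All 6 members met it in both lines, against 11.4% of genes in Molm13 and 3.82% in THP1. With a fold change of over 2 in its place, HERC5 and USP18 no longer met it in Molm13, which left 4 of 6 members against 4.85% of genes, while all 6 still met it in THP1, against 1.91%. Both shPRMT9 libraries were above both shCtrl libraries for 41.5% of all genes in Molm13 and 29.7% in THP1, so the lack of overlap by itself says little. Median log2 fold changes of the members were 1.28 in Molm13 and 2.31 in THP1, and the median over all genes was within 0.01 of 0 in each. The scaling of the libraries (TMM) is built to centre the bulk of genes near 0, so that median is not a measured background. The balance of higher and lower calls leans on the scaling too. Scaled by library size alone, 5531 genes were called higher and 5471 lower in Molm13, and 2770 and 3492 in THP1. ISG15, UBA7, UBE2L6 and HERC6 belong to the gene signature that the study drew from these same libraries, so their direction is not independent evidence. HERC5 and USP18 are outside it but were measured in the same libraries, so their direction is not independent evidence either.

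The order of the members by level changed with the knockdown. In Molm13 shCtrl cells it ran HERC5, UBA7, ISG15, USP18, HERC6 and UBE2L6, with 6.46 times more RPKM for the first than for the last, and no neighbours in this order overlapped. In Molm13 shPRMT9 cells it ran UBA7, HERC5, ISG15 and UBE2L6, followed by USP18 and HERC6, whose libraries overlapped. The step from HERC5 to ISG15 there was only 1.03 times. In THP1 shCtrl cells the order was ISG15, UBA7, UBE2L6, HERC5, USP18 and HERC6, and in THP1 shPRMT9 cells ISG15, UBE2L6, UBA7, USP18, HERC5 and HERC6, in both without overlap of neighbours. UBE2L6 thus moved up in both lines, and USP18 passed HERC5 in THP1. With 2 libraries a group, a lack of overlap between neighbours is a weak statement, and lengths that differ between isoforms would move the order.

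The lines were then compared directly, to ask whether the effect of PRMT9 KD was of the same size in both. In a fit of all 8 libraries over 19288 genes, 5 of 6 members had a larger rise in THP1 and 1 had a larger rise in Molm13 at FDR below 0.05. Of all genes, 22.8% were called with a larger value in THP1 and 19.4% with a larger value in Molm13. USP18 differed most, by 2.25 on the log2 scale (standard error 0.199, adjusted p = 1.4e-17 by edgeR), which is a 4.76-fold difference of folds (95% CI 3.62 to 6.26). ISG15, HERC6 and HERC5 formed a middle group, at 1.06 (standard error 0.164), 1.02 (standard error 0.144) and 0.97 (standard error 0.0821), with adjusted p of 3e-08, 2.6e-09 and 1.6e-18. UBA7 went the other way, at −0.36 (standard error 0.0776, adjusted p = 6.1e-05). UBE2L6 differed least firmly, at 0.53 (standard error 0.194, adjusted p = 0.019). Its adjusted p passed 0.05 when 1 of 4 libraries was left out, namely Molm13 shCtrl 1 (0.16), Molm13 shCtrl 2 (0.11), Molm13 shPRMT9 1 (0.074) or THP1 shCtrl 2 (0.10).

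**Figure D2:**
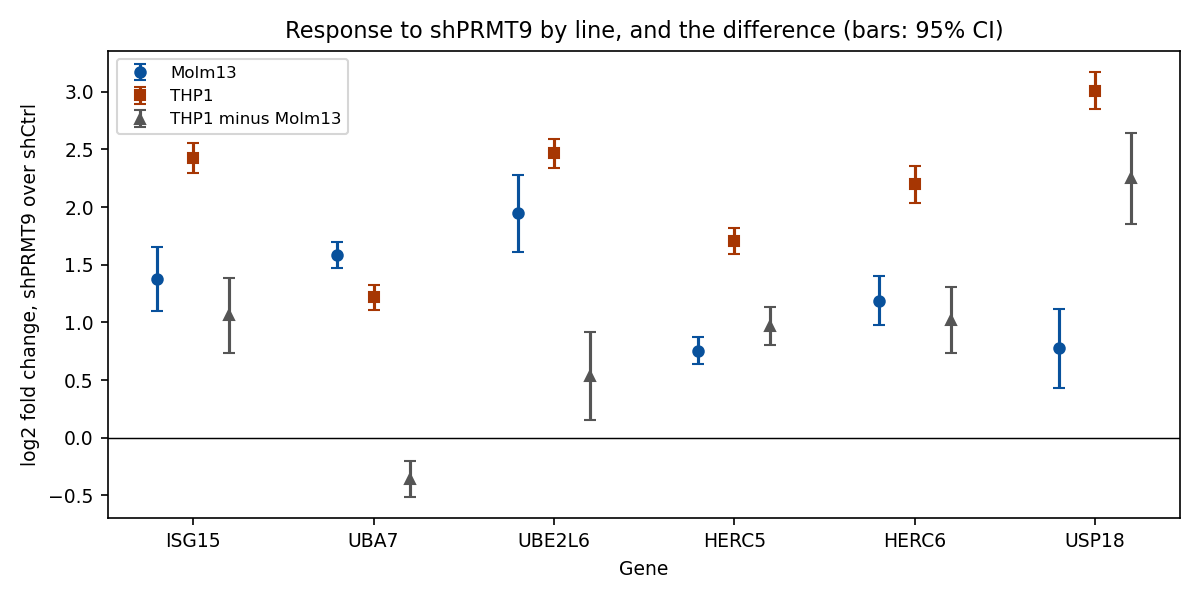
log2 fold change of shPRMT9 over shCtrl for each gene (x axis) in Molm13 (circles) and THP1 (squares), and THP1 minus Molm13 (triangles), with 95% confidence intervals from edgeR as bars. The values of both lines are above 0 for all 6 genes, and the triangle is below 0 for UBA7 alone.

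Between the shCtrl groups, 5 of 6 members were higher in THP1 at FDR below 0.05, against 40.1% of genes higher in THP1 and 42.7% higher in Molm13. UBE2L6 was 7.84-fold (95% CI 6.54 to 9.39) and ISG15 4.55-fold (95% CI 3.87 to 5.34) higher. UBA7 was 2.18-fold, USP18 1.98-fold and HERC6 1.48-fold higher, with adjusted p of 2.2e-31, 6.1e-09 and 9.1e-06 by edgeR. Line and table cannot be told apart in this comparison, since each line came in a table of its own. HERC5 did not pass, at 0.06 on the log2 scale (95% CI −0.07 to 0.18, adjusted p = 0.40). Without THP1 shCtrl 1 its value was 0.16 with an adjusted p of 0.043, and without THP1 shCtrl 2 it was −0.02. The genes with the largest gap between the lines at baseline, ISG15 and UBE2L6, were thus not those with the largest difference in response, which was USP18.

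Ratios within a library do not depend on how that library was scaled, and they show the mix of conjugating and removing genes. No test was run on them, since 2 against 2 libraries cannot give a small p in an exact permutation test. RPKM of USP18 per mean RPKM of UBA7, UBE2L6 and HERC5 was 0.389 and 0.306 in the Molm13 shCtrl and 0.272 and 0.219 in the shPRMT9 libraries. In THP1 the same ratio was 0.317 and 0.349 in shCtrl and 0.786 and 0.762 in shPRMT9 libraries. This ratio was therefore lower after PRMT9 KD in Molm13 (0.707-fold) and higher in THP1 (2.32-fold), with like values in the controls of both lines. In Molm13 the lower ratio came from UBA7 and UBE2L6 within the mean, since USP18 and HERC5 had log2 fold changes of 0.77 and 0.75 there. USP18 per ISG15 moved in the same directions, from 0.381 ± 0.0695 to 0.251 ± 0.0344 in Molm13 and from 0.166 ± 0.0247 to 0.247 ± 0.00729 in THP1.

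Ratios of the conjugating genes to ISG15 also differed between the groups. UBA7 per ISG15 went from 1.45 ± 0.0436 to 1.68 ± 0.0349 in Molm13, but from 0.698 ± 0.0442 to 0.301 ± 0.0171 in THP1. UBE2L6 per ISG15 went from 0.247 ± 0.0217 to 0.365 ± 0.0138 in Molm13 and stayed near 0.43 in THP1 (0.425 ± 0.00522 and 0.437 ± 0.00822). HERC5 per ISG15 was lower after PRMT9 KD in both lines, from 1.59 ± 0.0665 to 1.03 ± 0.00477 in Molm13 and from 0.366 ± 0.0705 to 0.221 ± 0.0165 in THP1. HERC6 per ISG15 went from 0.286 ± 0.0203 to 0.251 ± 0.00930 in Molm13 and overlapped between the groups in THP1. In all groups of THP1, each of these 4 genes except UBE2L6 was lower per ISG15 than in any group of Molm13.

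**Figure D3:**
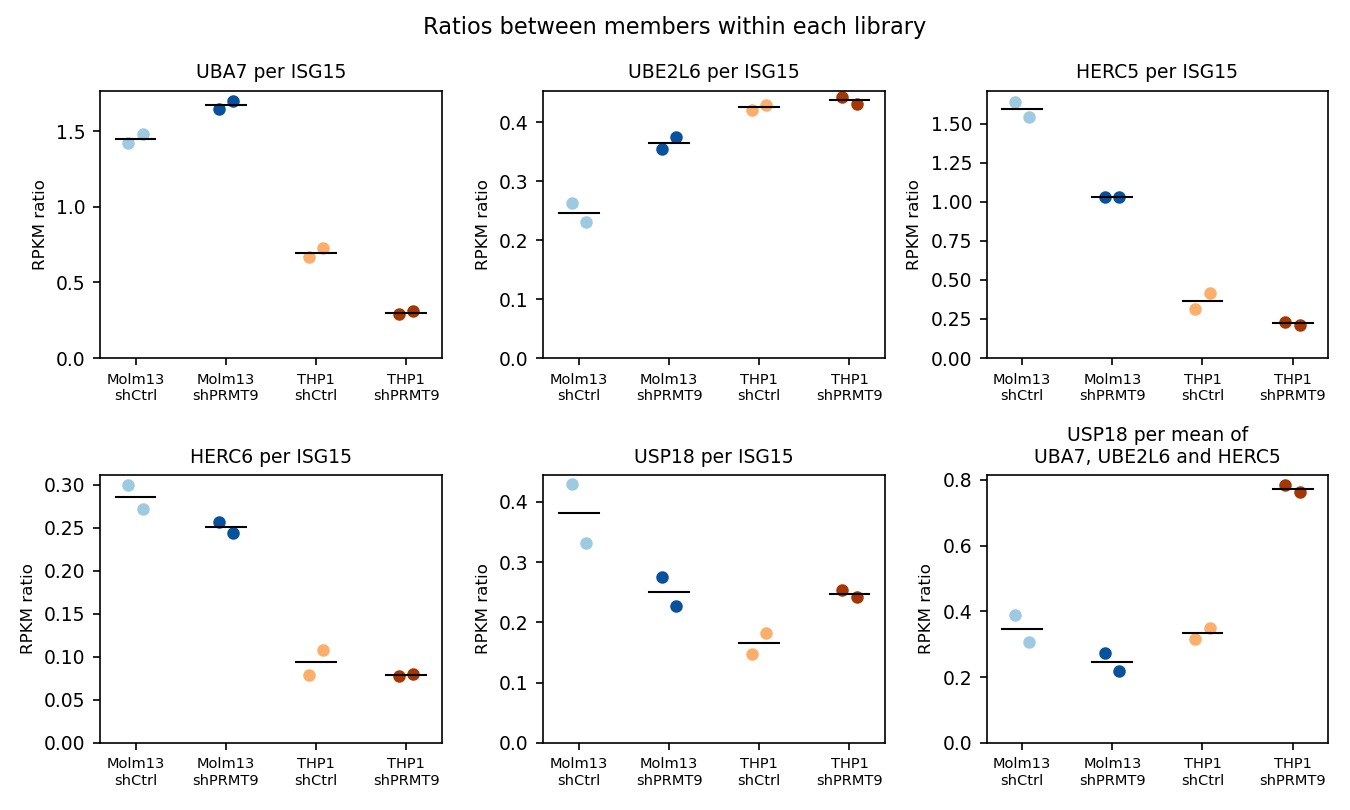
RPKM ratios between members in each of the 8 libraries, 1 panel for each ratio, with group means as short lines (n = 2) and axes from 0. In the last panel the THP1 shPRMT9 libraries are at 0.762 and 0.786, above the other 6 libraries, whereas the Molm13 shPRMT9 libraries are the lowest.

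Each member was set beside the other genes of its enzyme family, to see whether the family as a whole moved. For scale, 33.4% of all genes were called higher and 33.5% lower in Molm13, and 19.0% and 18.6% in THP1. Of the 9 other E1 enzymes, 1 was higher and 7 were lower in Molm13 and 4 were higher and 2 lower in THP1, and the median log2 fold changes were −0.40 and 0.13. Without THP1 shCtrl 2, the number called higher in THP1 was 2. ATG7, the E1 of autophagy, had the highest value of these in both lines (0.23 and 0.78), and the SUMO E1 subunits SAE1 (−0.95 and −0.22) and UBA2 (−0.85 and −0.29) fell in both. UBA7 therefore had the highest value of 10 E1 genes in each line.

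UBE2L6 likewise had the highest value of 33 tested E2 genes in Molm13 and of 32 in THP1. Of the 32 other E2 genes tested in Molm13, 7 were higher (21.9%) and 19 lower, against 33.4% and 33.5% of all genes. In THP1, 6 of 31 were higher (19.4%, near the 19.0% of all genes) and 10 lower, against 18.6% of all genes. The number called lower changed in both lines with some single libraries left out. The E2 genes nearest to UBE2L6 in value were UBE2H in Molm13 (0.86) and UBE2K in THP1 (0.49), and UBE2B rose in both lines (0.59 and 0.34). UBE2L3, a close relative of UBE2L6, was picked here after its values were seen and fell, by 0.44 in Molm13 and by 0.15 in THP1 on the log2 scale.

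The 4 HERC relatives, HERC1 to HERC4, had small log2 fold changes. In Molm13, HERC2 (−0.24, adjusted p = 7.6e-07 by edgeR) and HERC4 (−0.09, adjusted p = 0.030) were lower. The call of HERC4 was lost without shCtrl 2 (adjusted p = 0.24), shPRMT9 1 (0.057) or shPRMT9 2 (0.27), while that of HERC2 held. HERC1 (−0.0046) and HERC3 (−0.01) did not pass. In THP1, HERC1 was higher (0.14, adjusted p = 0.0033), a call that was lost without THP1 shCtrl 1 (adjusted p = 0.13). HERC2 (−0.02), HERC3 (0.13) and HERC4 (0.05) did not pass there, but HERC3 did without THP1 shPRMT9 1 (adjusted p = 0.015).

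Among 50 other genes named as ubiquitin-specific proteases, 44 were tested in Molm13, where 11 were higher (25%) and 23 lower. In THP1, 46 were tested, of which 10 were higher (21.7%) and 11 lower. The shares over all genes were 33.4% higher and 33.5% lower in Molm13, and 19.0% and 18.6% in THP1. Without THP1 shCtrl 2 the THP1 counts were 6 and 6, and without THP1 shPRMT9 1 they were 9 and 7. USP18 ranked 3 of 45 in Molm13, below USP11 (0.98) and USP30 (0.81), and had the highest value of 47 in THP1, where the next, USP8, had 0.23. USP13 (−1.21) and USP46 (−0.95) were among the 3 furthest falls in Molm13, and USP27X (−1.01), USP2 (−0.75) and USP51 (−0.65) fell furthest in THP1. Of 15 tested genes for ubiquitin and ubiquitin-like proteins other than ISG15, 7 were higher and 3 lower in Molm13 and 3 higher and 4 lower in THP1. ISG15 had the highest value of 16 in each line, and the autophagy modifier ATG12 rose in both (0.47 and 0.27). UBD, another interferon-responsive modifier, had 0 counts in all 8 libraries, which allows up to 3 counts in each.

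**Figure D4:**
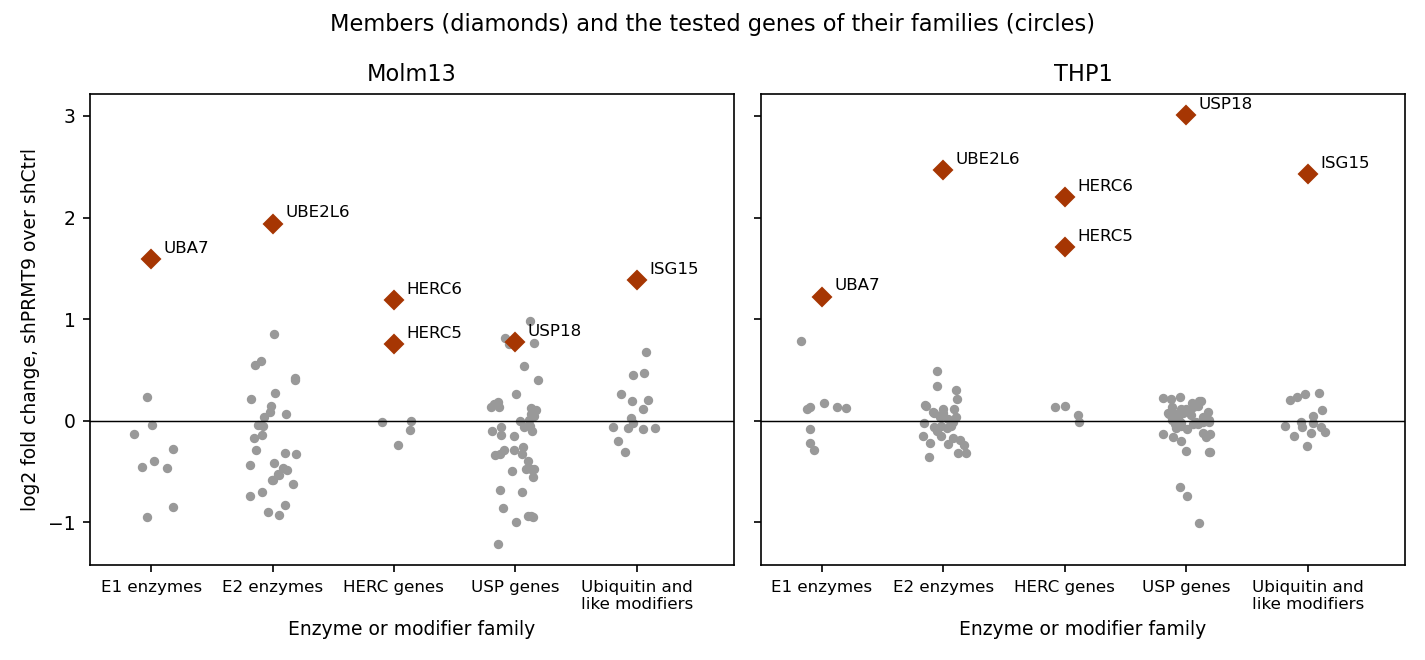
log2 fold change of shPRMT9 over shCtrl in Molm13 (left) and THP1 (right) for the members (diamonds, named) and the other tested genes of their families (circles, spread sideways at random). In THP1 all 6 members lie above the genes of their families, and in Molm13 USP18 lies among them while the other 5 lie above.

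Other genes tied to ISG15, among them partners of USP18 and the receptor of free ISG15, showed both rises and falls. Of 13 tested, 7 were higher and 4 lower in Molm13 and 8 higher and 1 lower in THP1, with medians of 0.10 and 0.21. The higher calls were 53.8% and 61.5% of these genes, against 33.4% and 19.0% of all genes. Lower calls made up 33.5% of all genes in Molm13 and 18.6% in THP1. By the study's rule 3 were higher in Molm13, namely STAT2, ITGAL and ITGB2, and 3 lower. In THP1 4 were higher, the same genes and TRIM25, and 0 lower. Of all genes, 11.4% in Molm13 and 3.82% in THP1 were higher by that rule. None of STAT2, ITGAL and ITGB2 is listed here as an enzyme that attaches or removes ISG15. Among the ligases, TRIM25, an ISG15 target and reported ligase, rose in both lines (0.57 and 0.61), as did ARIH1 (0.35 and 0.26). UBE2E1, an E2 that is itself modified by ISG15, rose too (0.42 and 0.21).

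Genes for proteases that can cleave or bind ISG15 did not follow USP18. USP5 (−0.48), USP13 (−1.21) and USP14 (−0.69) fell in Molm13 and were at −0.01, −0.05 and −0.03 in THP1, where they did not pass. USP16 was at −0.06 and 0.08, in neither line past the test, and USP24 rose slightly in both (0.10 and 0.13). SKP2, which takes part in the turnover of USP18, fell in both lines (−0.75 and −0.18). Of the partners of USP18 at the interferon receptor, STAT2 rose in both lines (1.65 and 1.26), and IFNAR2 rose in THP1 (0.28) but was at 0.03 in Molm13, not past the test. The subunits of LFA-1, the receptor through which free ISG15 acts on other cells, rose in both lines, ITGAL by 0.71 and 0.90 and ITGB2 by 1.29 and 0.86 on the log2 scale.

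Genes of known ISG15 targets showed more rises than falls. Of 21 tested, 15 were higher and 5 lower in Molm13 and 12 were higher and 2 lower in THP1, with medians of 0.42 and 0.15. Of all genes, 33.4% were higher and 33.5% lower in Molm13 and 19.0% and 18.6% in THP1. The lower calls in Molm13 were 3 without shCtrl 1 or without shPRMT9 2, and those in THP1 were 1 without shCtrl 1 or without shCtrl 2. IFIT1, which binds foreign RNA, rose most in both lines (4.04 and 3.28), and the antiviral GTPase MX1 rose as well (1.84 and 2.40). MX1 was low in Molm13, with 16 and 10 counts in shCtrl and 56 and 37 in shPRMT9 libraries (0.075 and 0.275 RPKM). The RNA sensor genes IFIH1 (2.08 and 2.19) and DDX58, which encodes RIG-I (0.73 and 2.21), rose in both lines too. The E2 gene UBE2N fell in both (−0.53 and −0.23), and the phosphatase gene PPM1B fell in Molm13 (−0.56). Of 12 tested genes of type I interferon signalling, which drives the members in interferon-treated cells, 10 were higher and 0 lower in each line. Transcription factor genes were among them, with IRF7 at 1.95 and 1.61 and IRF9 at 1.91 in Molm13. Some genes stand in more than one of these lists, STAT2, TRIM25 and UBE2E1 among them.

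The genes whose pattern over the 8 libraries was most like each member were found by the root mean square difference of centred log2 CPM among 14893 genes, a description of the data with no test. HERC5 had the closest neighbours, among them DDX60 (0.116) and SAMD9 (0.117). UBA7 was followed by PARP10 (0.175), MEFV (0.179) and TRIM69 (0.189), and UBE2L6 by BATF2 (0.162), MX1 (0.291) and DHX58 (0.292). HERC6 was followed by CD101 (0.203), RNF213 (0.209) and CD209 (0.212), and ISG15 by APOL1 (0.231), TNFRSF9 (0.262) and CXCL8 (0.308). USP18 had the most distant ones, GMPR (0.253), CMPK2 (0.361) and PARP9 (0.373). Among the members themselves, ISG15 and UBE2L6 were closest (0.324), then HERC5 and HERC6 (0.352), and HERC5 and UBE2L6 were farthest apart (1.42). No member was among the nearest 3 genes of another. All of these distances rest on 4 groups in 2 lines, so they mix the level of a line with its response. BATF2, TNFRSF9 and GMPR did not pass the filter on low counts in Molm13, so their distances rest on few counts there. MX1 passed it, but had only 10 to 56 counts in the Molm13 libraries.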

How the data were processed

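Poly(A) RNA-seq counts of 8 libraries were used. The authors deposited raw counts (whole reads on each gene, not normalized) in 1 table for each line. The submitters' processing notes name TopHat2 2.0.8, HTSeq 0.11.2, edgeR 3.30.3 and build hg38, without a strand setting. Coordinates and exon lengths came from the Molm13 table and were used for both lines.

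Everything else was computed in R 4.3.3 with edgeR 4.0.16 (TMM, filterByExpr with a minimum count of 10, quasi-likelihood test, Benjamini-Hochberg over all genes tested, FDR below 0.05) and, as an alternative, DESeq2 1.42.0. Each line was fitted alone without a replicate block, and differences between lines came from a joint fit of all 8 libraries. Standard errors were taken as |log2 fold change| / √F. RPKM used the library totals. The tests were tried on simulated data. Replicate libraries differed by more than sampling noise, with a chi-square per gene of 1.32 to 2.06.

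The members and the gene lists were chosen with earlier results of these data known. Named are all members, the other genes tied to ISG15, the HERC relatives and PRMT9. Also named are up to 3 of the highest and 3 of the lowest called genes per further list and line, and the 3 nearest genes of each member. Some genes that this rule selects are not reported here. A gene on the Y chromosome was left out of the protease family. Alternatives were other scalings, no filter, DESeq2, the block, stricter call rules, a fit of all 8 libraries, thinning to the smallest total, CPM ratios and leaving out each library.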

Additional observations from a re-analysis of the deposited data

Results flagged for a closer look

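For all 6 members the response to shPRMT9 differed between the lines in the test of the difference itself (edgeR, 8 libraries). On the log2 scale, THP1 minus Molm13, the differences were 2.25 for USP18, 1.06 for ISG15, 1.02 for HERC6, 0.97 for HERC5, 0.53 for UBE2L6 and −0.36 for UBA7. The direction was the same in both lines for every member, so that the difference is one of size. Of all genes, 22.8% had a larger and 19.4% a smaller value in THP1 by the same test. Groups of 2 libraries could not be tested for single libraries far from the others.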

How the results depend on the processing

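The 6 members stayed called higher in both lines under the other scalings, without a filter, in the fit of all 8 libraries, under DESeq2 and without any 1 library. A fold change above 2 was the only rule that lost members, HERC5 and USP18 in Molm13. In Molm13, USP18 was the weakest, with a highest adjusted p of 0.03 under DESeq2. The number of all genes called fell from 11008 to 3746 in Molm13 under the study's rule and to 1303 with a fold change above 2, and from 6127 to 1012 and 399 in THP1, by construction of the stricter rules. DESeq2 called 3898 genes in THP1. The cause was not tested. UBE2L6 lost the call of a difference between the lines without 1 of 4 libraries, and over all libraries left out in turn its value ran from 0.41 to 0.59. HERC5 between the shCtrl groups ran from −0.0225 (without THP1 shCtrl 2) to 0.16 in the same way. Thinning every library to the smallest total left all 6 differences between the lines called. USP18 per mean of the conjugating enzymes in THP1 was 2.59-fold on CPM in place of 2.32-fold on RPKM. In THP1, with each library left out in turn, 2 to 4 other E1 genes (4 with all libraries), 0 to 2 HERC relatives (1) and 6 to 9 protease genes (10) were called higher, and 6 to 10 protease genes (11) lower. In Molm13, 1 to 2 HERC relatives (2) and 3 to 5 ISG15 target genes (5) were called lower.

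With the replicate number as a block, all 6 members stayed called in each line and in the difference between the lines, and 10855 genes in Molm13, 6054 in THP1 and 7961 for the difference were called. Same-numbered libraries did not deviate together (correlation −0.087 in Molm13 and −0.0143 in THP1), so the numbers were taken as names only. Depth limits USP18 and UBE2L6 in Molm13 most, where shCtrl libraries had 41 to 70 counts of each.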
